A study of Mus musculus with 4 samples.

Results

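The genes described here are 35 genes of macrophages and microglia, taken by symbol from a count table of 55487 Ensembl gene IDs. They were read in RNA of the mouse calvaria, the roof of the skull, at E14.5, a stage at which its bones are forming. All 35 members had an ID in the table and all 35 passed the filter on low counts. They fall into 28 genes shared by macrophages of many tissues, 4 genes of border macrophages (Mrc1, Lyve1, Cd163 and Pf4), which live in the meninges, around vessels and in connective tissue, and 3 genes used as microglia markers (P2ry12, Tmem119 and Siglech). The frontal bone gave 2 libraries, and the parietal bone taken with the interparietal bone gave the other 2. The labels name no treatment, genotype, strain or sex, and do not say how many embryos or which litters went into a library. Whether the replicates are different embryos is not stated either, and the p-values below therefore cover the spread of these 4 libraries, which may be technical only.

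Macrophages of the embryo arise from yolk sac and fetal liver progenitors and settle in every tissue before bone forms. Their survival depends on the receptor CSF1R and its ligands CSF1 and IL-34, and their gene program on the ETS factor PU.1, the product of Spi1, which binds purine-rich DNA with a GGAA core. Microglia are the macrophages of the brain parenchyma, while border macrophages with high Mrc1 (CD206) and Lyve1 occupy the meninges and other connective tissue, and osteoclasts of bone derive from the same lineage.

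Start-site sequences are shown for 5 members, because they cover the shared, border and microglia genes and each holds a purine-rich PU box, the hexamer that gave PU.1 its name. RefSeq promoter entries (GRCm38.p6) were found for 26 of the 35 members and not for Adgre1, C1qa, Cd14, Cd52, Csf1r, Lyve1, Spi1, Tmem119 and Tyrobp. Each line runs 5′ to 3′ on the gene's strand from 100 bases before the start site to 20 bases after it, and capitals mark GAGGAA or its reverse complement. The windows are chr4:130913216-130913335 on the plus strand for Laptm5, chr14:31168622-31168741 on the minus strand for Stab1, chr5:90772335-90772454 on the plus strand for Pf4, chr2:14229314-14229433 on the plus strand for Mrc1 and chr7:55768084-55768203 on the plus strand for Siglech.
Laptm5: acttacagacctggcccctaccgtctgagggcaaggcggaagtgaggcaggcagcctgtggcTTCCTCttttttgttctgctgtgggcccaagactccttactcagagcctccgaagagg
Stab1: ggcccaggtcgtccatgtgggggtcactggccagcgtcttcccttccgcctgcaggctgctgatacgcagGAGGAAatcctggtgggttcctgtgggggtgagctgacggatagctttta
Pf4: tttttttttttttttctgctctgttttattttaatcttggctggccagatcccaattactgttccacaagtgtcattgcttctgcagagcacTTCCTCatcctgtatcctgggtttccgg
Mrc1: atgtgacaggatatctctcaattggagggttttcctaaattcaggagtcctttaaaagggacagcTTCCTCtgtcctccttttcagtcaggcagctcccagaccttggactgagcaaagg
Siglech: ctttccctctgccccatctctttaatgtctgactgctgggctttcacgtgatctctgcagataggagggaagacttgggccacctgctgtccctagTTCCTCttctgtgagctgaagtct

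GAGGAA was found on either strand of this window in 13 of the 26 members, 50%, against 13.6% of the 27025 genes with an entry. The window was set after the positions of the matches had been seen. Over the whole entry, from 250 bases before to 50 after the start, the shares were 65.4% (17 of 26) and 31.3%. Related spellings were also searched on both strands of the whole entry. The octamer GAGGAAGT, which contains GAGGAA, was in 15.4% of members and 3.69% of genes, AGGAAGT in 34.6% and 10.7%, GGAAGT in 53.8% and 26.5%, and GGAAGTG in 30.8% and 12.5%, and these overlap one another. A match describes letters only, and the files hold no measurement of binding.

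Total counts lay between 24069177 and 35555013 per library, and 3 counts corresponded to 0.0852 to 0.123 CPM (counts per 1000000 counts, with library sizes scaled by TMM, the trimmed mean of M-values). Among counts of 1 to 20, 68.3% to 74.4% were even, so both mates of a fragment may each have been counted, and counts then stand for fewer fragments than their number. The tissue label was checked against osteoblast genes: Runx2, the master factor of the lineage, was at 16.3 and 15.8 CPM in the frontal and 13.5 and 10.7 CPM in the parietal-interparietal libraries, and the sum of 9 osteoblast genes, led by Col1a1, was 1130 and 1124 against 1584 and 1592 CPM. The 9 genes did not share the direction of their sum, with a median log2 fold change of 0.25 and 5 positive and 4 negative values. Forebrain genes were present too, with a summed level of 10 such genes of 611 to 627 CPM in frontal and 304 to 311 CPM in parietal-interparietal libraries. Members overlap other annotated genes in 14 cases, and 9 of them share exon bases with a neighbour. Csf1r shares 873 exon bases with Hmgxb3 on the opposite strand, and the strand setting of the counting is not given in the sources used here. Itgam shares 3450 exon bases with the gene model Gm49368 on the same strand, which no strand setting can separate. Cd52 shares 172 exon bases with Crybg2, Stab1 112 with Nt5dc2 and F13a1 74 with Gm30489, each on the opposite strand. The counts of Csf1r and Itgam are therefore uncertain, and the effect on the other members that share exon bases was not tested.

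Of the 35 macrophage and microglia genes, 7 were lower in the frontal libraries and 0 higher. The summed level of the 35 members was 732 and 753 CPM in frontal libraries 1 and 2 and 914 and 917 CPM in parietal-interparietal libraries 1 and 2, a ratio of the means of 1.23. The 7 lower genes had an adjusted p under 0.05 in edgeR's quasi-likelihood test with Benjamini-Hochberg adjustment over all 20947 genes tested. They are 20% of the members, against 6.44% of all genes tested that were called lower, 6.25% called higher and 12.7% called in either direction. They were Laptm5, Pf4, Stab1, Lyz2, Tyrobp, C1qc and F13a1, with folds between 1.27 and 1.69. DESeq2 also called 0 members higher and 7 lower, where 3.67% of all genes with a count were called lower. At an unadjusted p under 0.05 there were 11 members on the lower side (13.3% of all genes tested) and 1, Coro1a, on the higher side (13.7% of all genes tested). The share of counts on an annotated rRNA locus (CT010467.1) separated the groups too, at 8.03% to 9.86% in frontal and 5.97% to 6.07% in parietal-interparietal libraries, and its part in the member differences was not tested. In bulk RNA, fewer macrophages and less RNA of these genes per macrophage cannot be told apart.

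Most members that were not called also had values on the lower side. The log2 fold change was negative for 29 of 35 members, with a median of −0.28 against 0.01 over all genes tested. Both frontal libraries were below both parietal-interparietal libraries for 26 members (74.3%, against 28.4% of all genes tested), above them for 4 (11.4%, against 28.9%), so that 30 members had separate groups, against 57.3% of all genes tested. The groups overlapped for 5, which were Fcer1g, C1qa, Adgre1, Trem2 and Aif1. The number of calls depended on which library was left out. Between the parietal-interparietal libraries a member differed by a median of 1.08-fold and at most 1.36-fold, while between the frontal libraries the median was 1.14-fold and the largest difference 1.67-fold (Ptprc). Without parietal-interparietal library 1 the members called lower dropped to 1 (Laptm5), and without library 2 to 0, where 2.03% and 1.96% of all genes tested were called lower. Leaving out frontal library 1 or 2 gave 12 each time, where 12.2% and 17% of all genes were called lower. When the counts of both parietal-interparietal libraries were added into a single sample, the median log2 fold change of the members was −0.28, against 0.01 over all genes. The SE of Laptm5 was then 0.21, against 0.13 with the libraries kept apart. Members called higher were 1 without frontal library 1 (Tmem119) and 3 without frontal library 2 (C1qa, Coro1a and Ctss), where 12% and 15.6% of all genes were called higher.

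**Figure D1:**
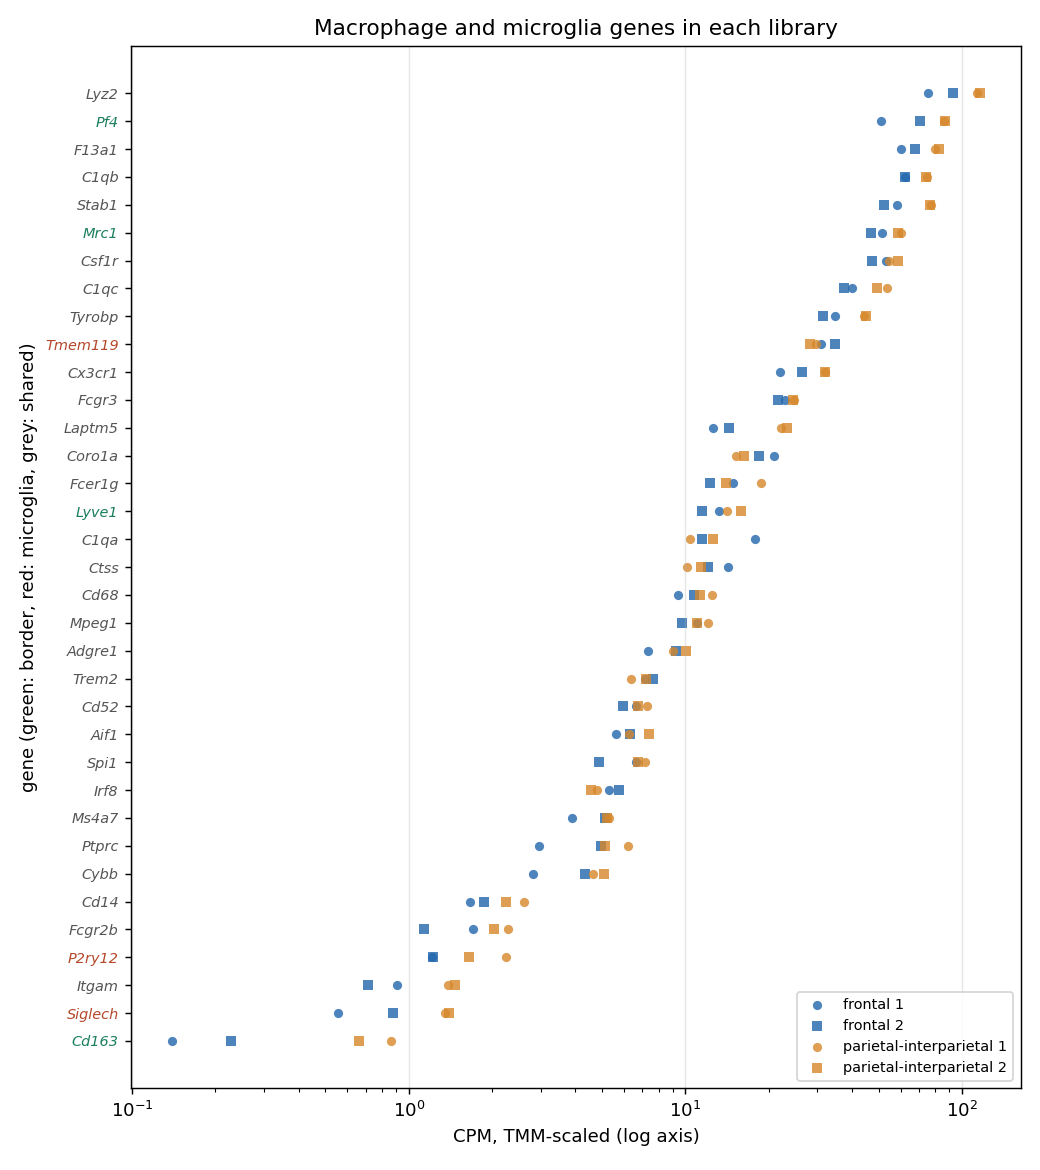
Level of each of the 35 members (CPM, log axis) in each of the 4 libraries, ordered by mean level, with circles and squares for libraries 1 and 2 of a group, blue for frontal and orange for parietal-interparietal. The blue points lie to the left of the orange ones for 26 genes and to the right for 4, and levels run from 0.139 CPM for Cd163 in frontal library 1 to 116 CPM for Lyz2 in parietal-interparietal library 2.

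The lineage regulators and the growth factor receptor were not called. Csf1r, the receptor for CSF1 and IL-34 on which macrophage survival depends (ENSMUSG00000024621, GRCm38 chromosome 18, 61100598 to 61132149), was at 53.2 and 47.2 CPM in frontal libraries 1 and 2 and at 54.5 and 58.8 CPM in parietal-interparietal libraries 1 and 2. Its frontal values were both below the others by a small margin, and its log2 fold change was −0.17 ± 0.10 (SE; 95% interval −0.40 to 0.05, edgeR adjusted p = 0.303). Spi1, which encodes PU.1, was at 6.61 and 4.86 against 7.12 and 6.74 CPM (log2 fold change −0.28, 95% interval −0.77 to 0.21). Irf8, the interferon regulatory factor that works with PU.1 in monocytes and microglia, was at 5.29 and 5.76 against 4.79 and 4.57 CPM, with the frontal libraries on the upper side (log2 fold change 0.24, interval −0.25 to 0.73). The intervals of Csf1r and Spi1 reach into the range of the called genes, which lay between −0.75 and −0.34, and that of Irf8 does not.

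Among the leukocyte membrane and signalling genes 2 of 6 were lower (33.3%, against 6.44% of all genes tested). Laptm5, a lysosomal membrane protein of blood cells (ENSMUSG00000028581, chromosome 4, 130913125 to 130936141), was at 12.6 and 14.4 CPM in frontal libraries 1 and 2 and at 22.2 and 23.4 CPM in parietal-interparietal libraries 1 and 2. The groups were far apart beside the spread within each, and the gene was 1.69-fold lower in frontal libraries (log2 fold change −0.75 ± 0.13 SE, edgeR adjusted p = 0.00514). Tyrobp, which encodes the adaptor DAP12 that carries the signal of TREM2 and other receptors (ENSMUSG00000030579, chromosome 7, 30413760 to 30417585), was at 34.7 and 31.4 against 44.4 and 45.1 CPM. It was 1.36-fold lower without overlap of the groups (log2 fold change −0.44 ± 0.10, edgeR adjusted p = 0.0188).

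Fcer1g, the common gamma chain of Fc receptors and the other adaptor of this kind, was at 14.9 and 12.3 against 18.7 and 14.1 CPM, and its groups overlapped (log2 fold change −0.27, 95% interval −0.65 to 0.11). Ptprc, the pan-leukocyte phosphatase CD45, was at 2.96 and 4.94 against 6.22 and 5.12 CPM. Its frontal libraries differed 1.67-fold from each other, and its log2 fold change of −0.51 had an interval from −1.14 to 0.12. Cd52, a small glycoprotein of leukocyte surfaces, had a log2 fold change of −0.16. Coro1a, an actin-binding protein of leukocytes that neurons also make, went the other way at 21.0 and 18.5 against 15.3 and 16.3 CPM (log2 fold change 0.32 ± 0.13, unadjusted p = 0.0356, edgeR adjusted p = 0.15).

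The 3 chains of complement C1q, the trigger of the classical pathway that macrophages secrete, are encoded side by side on chromosome 4 between 136880129 and 136898803, in the order C1qb, C1qc and C1qa. C1qc was lower, at 40.2 and 37.5 CPM in frontal and 53.4 and 49.5 CPM in parietal-interparietal libraries (1.32-fold, log2 fold change −0.41 ± 0.10 SE, edgeR adjusted p = 0.0237). C1qb was at 62.3 and 62.1 against 74.9 and 73.9 CPM, with little spread in either group, and missed the threshold (log2 fold change −0.26 ± 0.09, adjusted p = 0.0789). C1qa did not share the direction. It was at 17.8 and 11.4 against 10.4 and 12.6 CPM, and its frontal library 1 stood above the other 3 libraries. Its CPM relative to C1qb, given to compare libraries and not the genes, was 0.286 and 0.184 in the frontal and 0.139 and 0.171 in the parietal-interparietal libraries. Its log2 fold change of 0.34 had a 95% interval from −0.13 to 0.80, and it turned to −0.01 without frontal library 1.

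Of the 9 surface receptors 1 was lower (11.1%, near the 6.44% of all genes tested). Stab1, stabilin-1, a scavenger receptor of tissue macrophages that sinusoidal and some other endothelium also carries (ENSMUSG00000042286, chromosome 14, 31139013 to 31168641), was at 58.4 and 52.4 CPM in frontal and at 77.3 and 76.9 CPM in parietal-interparietal libraries. It was 1.39-fold lower (log2 fold change −0.48 ± 0.09 SE, edgeR adjusted p = 0.0088). Cx3cr1, the fractalkine receptor of microglia and other macrophages, was at 21.9 and 26.5 against 31.9 and 31.9 CPM and missed the threshold (−0.40 ± 0.12, adjusted p = 0.0615), and it was called in 4 of 11 alternatives: without frontal library 2, with no scaling beyond the total count, with no filter on low counts and with the replicate number as a block. Cx3cl1, which encodes its ligand fractalkine, was at 6.92 and 4.94 against 8.31 and 8.36 CPM and was not called (log2 fold change −0.50, adjusted p = 0.167).

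The other receptors were not called either. Fcgr3, an activating Fc gamma receptor, was at 22.9 and 21.7 against 24.7 and 24.6 CPM, and the inhibitory receptor Fcgr2b was at 1.70 and 1.14 against 2.29 and 2.03 CPM. Adgre1, which encodes the macrophage antigen F4/80, was at 7.30 and 9.26 against 9.002 and 10.02 CPM with overlapping groups. Trem2, a lipid-sensing receptor that signals through DAP12, was at 7.13 and 7.64 against 6.38 and 7.22 CPM, and its log2 fold change of 0.12 had a 95% interval from −0.31 to 0.54. Its adaptor gene Tyrobp was called lower, and whether the genes differ from each other in this was not tested. Ms4a7, a membrane protein of border macrophages among others, Cd14, the co-receptor for lipopolysaccharide, and Itgam, the integrin CD11b of monocytes and granulocytes, had log2 fold changes of −0.22, −0.45 and −0.83. Itgam was supported by only 25 to 40 counts per library, and its interval ran from −1.92 to 0.26.

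Of the 7 lysosomal, enzyme and cytoplasmic genes 2 were lower (28.6%, against 6.44% of all genes tested). Lyz2, lysozyme, an enzyme that breaks bacterial cell walls (ENSMUSG00000069516, chromosome 10, 117277331 to 117282321), was at 75.4 and 92.8 CPM in frontal and at 113 and 116 CPM in parietal-interparietal libraries. Both frontal libraries were below, but they differed from each other more than the other pair did (1.37-fold, log2 fold change −0.45 ± 0.10 SE, edgeR adjusted p = 0.0196). F13a1, the A subunit of coagulation factor XIII, which macrophages of connective tissue and megakaryocytes make (ENSMUSG00000039109, chromosome 13, 36867178 to 37050244), was at 60.3 and 67.6 against 79.7 and 82.8 CPM (1.27-fold, log2 fold change −0.34 ± 0.09, adjusted p = 0.0369).

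Cd68, a glycoprotein of macrophage lysosomes, was at 9.39 and 10.8 against 12.5 and 11.3 CPM and was not called. Ctss, the lysosomal protease cathepsin S, had both frontal libraries on the upper side, at 14.3 and 12.04 against 10.1 and 11.4 CPM (log2 fold change 0.28, 95% interval −0.07 to 0.63). Aif1, the actin-binding protein IBA1, Mpeg1, the pore-forming protein perforin-2, and Cybb, the catalytic subunit of the phagocyte oxidase, had log2 fold changes of −0.19, −0.15 and −0.43. None of these 3 was called. Cybb was uneven within the frontal pair, at 2.82 and 4.34 CPM.

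Of the 4 border macrophage genes 1 was called lower, against 6.44% of all genes tested. All 4 had both frontal libraries below both parietal-interparietal libraries, against 28.4% of all genes tested. The summed level of the 4 was 116 and 129 CPM in frontal and 162 and 162 CPM in parietal-interparietal libraries, a ratio of the means of 1.32. Pf4, platelet factor 4, a chemokine of megakaryocytes and of border and fetal macrophages (ENSMUSG00000029373, chromosome 5, 90772435 to 90773383), was at 51.1 and 70.6 against 86.5 and 86.8 CPM. It was 1.42-fold lower (log2 fold change −0.51 ± 0.13 SE, edgeR adjusted p = 0.0321), and the size depended on the frontal library, with −0.29 without library 1 and −0.77 without library 2. Mrc1, the mannose receptor CD206 (ENSMUSG00000026712, chromosome 2, 14229392 to 14332057), was at 51.6 and 46.9 against 60.2 and 58.8 CPM and missed the threshold (−0.27 ± 0.10, adjusted p = 0.0906). It was called without frontal library 1, without frontal library 2 and with no scaling beyond the total count.

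Lyve1, the hyaluronan receptor of border macrophages and of lymphatic endothelium, was at 13.3 and 11.5 against 14.2 and 16.0 CPM (log2 fold change −0.28, 95% interval −0.61 to 0.05). Cd163, the scavenger receptor for haemoglobin and haptoglobin, was barely detected, with 4 and 8 counts in frontal and 21 and 18 counts in parietal-interparietal libraries. These are 0.139 and 0.227 against 0.859 and 0.663 CPM, and the 4.04-fold difference was not called (log2 fold change −2.01, interval −3.75 to −0.28, edgeR adjusted p = 0.126). As a ratio of CPM to that of Csf1r, again to compare libraries, Mrc1 was at 0.969 and 0.993 in frontal and 1.11 and 1.00 in parietal-interparietal libraries, and Lyve1 at 0.250 and 0.244 against 0.261 and 0.271.

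**Figure D2:**
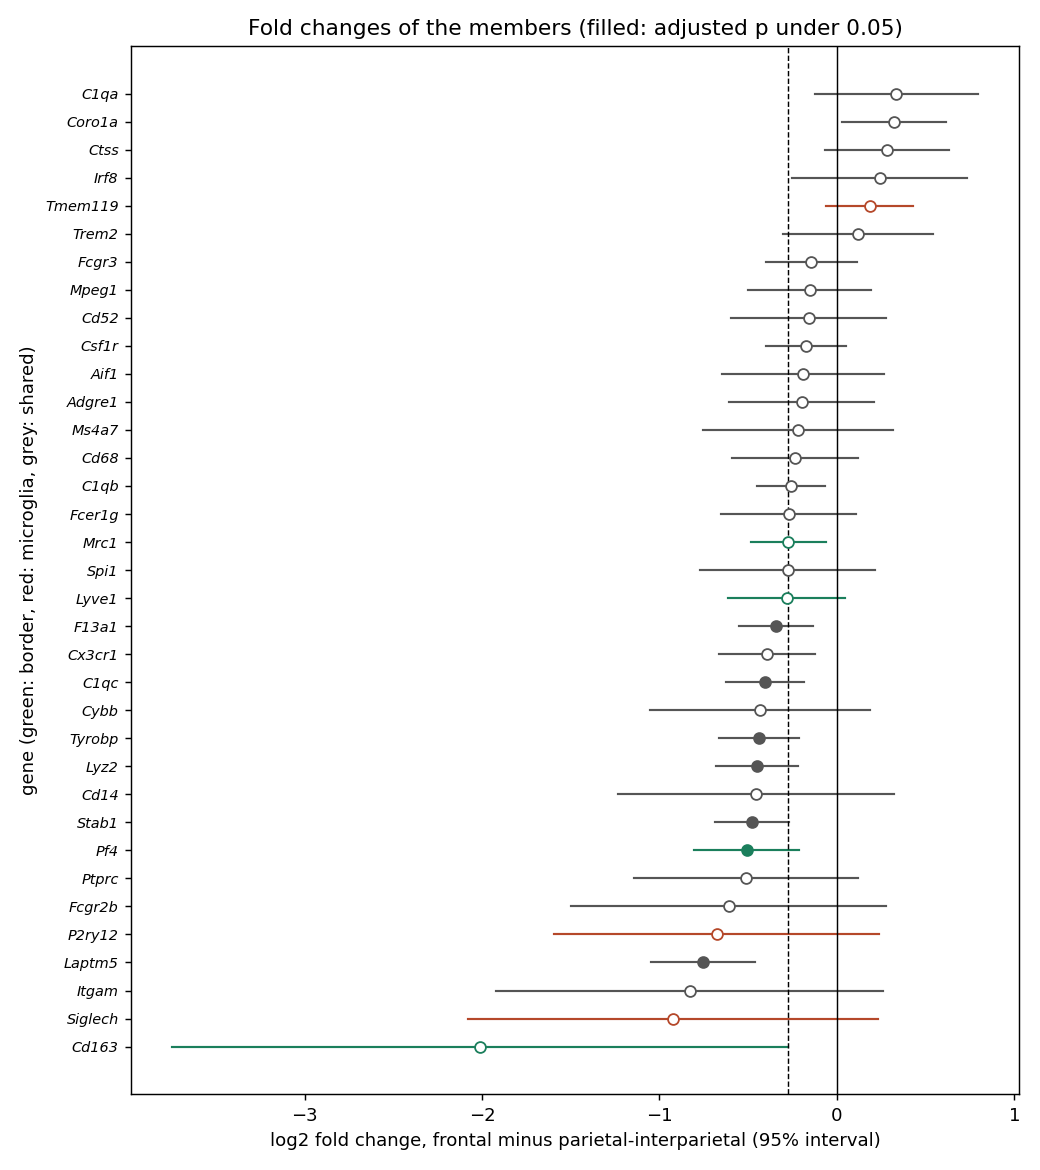
Log2 fold change (frontal minus parietal-interparietal) of each member with its 95% interval, filled where the edgeR adjusted p was under 0.05, with green for border, red for microglia and grey for shared genes; the dashed line is the members' median of −0.28. The 7 filled points lie between −0.75 and −0.34, 6 genes lie above 0, and the gene with the fewest counts, Cd163, has the widest interval.

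None of the 3 microglia markers was called by edgeR or by DESeq2, and 0 had an unadjusted p under 0.05 in edgeR. Tmem119, a membrane protein that osteoblasts make as well as microglia (ENSMUSG00000054675, chromosome 5, 113793729 to 113800516), was at 31.0 and 34.8 CPM in frontal and at 29.6 and 28.3 CPM in parietal-interparietal libraries. Both frontal values were above the others, and the log2 fold change was 0.18 ± 0.11 (SE; 95% interval −0.06 to 0.43, edgeR adjusted p = 0.324). P2ry12, the ADP receptor of homeostatic microglia, was at 1.22 and 1.22 against 2.25 and 1.66 CPM, and Siglech, a sialic acid-binding lectin of microglia and plasmacytoid dendritic cells, at 0.556 and 0.880 against 1.35 and 1.40 CPM. Their log2 fold changes of −0.68 and −0.92 had intervals from −1.59 to 0.24 and from −2.08 to 0.23. Tmem119 therefore differed in sign from the other microglia markers, without a test of that difference.

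Tmem119 made up 94.6% and 94.3% of the summed CPM of the 3 microglia genes in the frontal and 89.2% and 90.3% in the parietal-interparietal libraries. These shares do not take transcript length into account. The subset's sum of 32.8 and 36.9 against 33.2 and 31.4 CPM followed this gene, while the sum of P2ry12 and Siglech was 1.77 and 2.101 against 3.60 and 3.06 CPM. Of 9 osteoblast genes reported in the same libraries, 1 was higher and 1 lower in frontal libraries, with 3 higher and 2 lower at an unadjusted p under 0.05 in edgeR. Ibsp, bone sialoprotein, was 2.13-fold higher, and Col1a1, type I collagen, 1.53-fold lower. The part of osteoblasts in the Tmem119 level was not tested.

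Levels of different members were ranked per length, as CPM per kilobase of the longest protein-coding transcript, averaged over the 4 libraries. The highest were Pf4 at 125, Lyz2 at 75.6, Tyrobp at 69.0 and C1qb at 62.8, which is above 95.3% of tested genes for C1qb and above 97.7% for Pf4. On this scale Csf1r was at 11.4, Mrc1 at 10.1, Tmem119 at 13.8 and Lyve1 at 4.75. Microglia receptors and CD45 ranked low, with Ptprc at 0.948, P2ry12 at 0.677 and Siglech at 0.455, and Cd163 was last at 0.106. Of neighbours in this order, Mrc1 and Coro1a (10.2) had nearly the same mean, while Coro1a was at 11.3 in frontal and 9.04 in parietal-interparietal libraries and Mrc1 at 9.17 and 11.1.

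Other genes of the same cells and pathway were read from further lists. Of 12 genes of the CSF1 receptor axis and of myeloid transcription factors, 4 were lower and 0 higher by edgeR, and the median log2 fold change was −0.39. These 4 are 33.3% of the list, against 6.44% of all genes tested. At an unadjusted p under 0.05 there were 4 lower and 1 higher. With no filter on low counts, and with the replicate number as a block, edgeR called 4 lower and 1 higher. Csf1, the ligand of CSF1R, was at 19.1 and 18.7 CPM in frontal and at 23.9 and 26.8 CPM in parietal-interparietal libraries (1.34-fold lower, adjusted p = 0.0451). Il34, the other ligand, was at 2.36 and 3.21 against 3.76 and 4.20 CPM and was not called. Maf, a factor of resident macrophages and of many other cells, was 1.59-fold lower, Runx1, a factor of blood progenitors and of skeletal mesenchyme, 1.53-fold lower, and Irf5, a factor of inflammatory macrophages, 2.07-fold lower. DESeq2 called 3 of the 12 lower, and without parietal-interparietal library 1 or 2 or with that pair summed 1, 2 and 1 were called lower.

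Of 46 tested macrophage genes outside the members, 4 were lower and 0 higher, and 8.70% is near the 6.44% of all genes tested. The median log2 fold change was −0.30. At an unadjusted p under 0.05 there were 12, all lower. The called genes were Lyn, a kinase of leukocyte signalling (1.78-fold), Cd36, a scavenger receptor shared with endothelium (1.90-fold), Lgmn, the lysosomal protease legumain (1.44-fold), and Dab2, an endocytic adaptor shared with many cells (1.43-fold). Apoe was at 357 and 291 against 396 and 397 CPM and was not called. Without parietal-interparietal library 1 or 2, or with the pair summed, 1 gene of the list was called lower each time, and without frontal library 1 or 2 there were 12 and 10.

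Of 11 other genes enriched in microglia, 1 was higher and 2 lower (9.09% and 18.2%, against 6.25% and 6.44% of all genes tested). Sall1, a zinc finger factor of microglia and of neural and kidney progenitors, was 3.85-fold higher, at 18.1 and 15.2 against 4.30 and 4.35 CPM. Fcrls, an Fc receptor-like scavenger receptor of microglia and other resident macrophages, was 1.34-fold lower, at 34.4 and 40.1 against 50.4 and 49.7 CPM, and the chemokine gene Ccl3 was 2.75-fold lower. Forebrain genes moved with Sall1, with 8 of 10 higher in frontal libraries, and their part in the Sall1 difference was not tested. Of 11 tested chemokine and chemokine receptor genes of myeloid cells none was called by edgeR or DESeq2, and 2 had an unadjusted p under 0.05, both lower. The median log2 fold change was −0.48, with 8 negative and 3 positive values. Both frontal libraries lay below both others for 63.6% of these genes, against 28.4% of all genes tested.

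Other cell types that share these genes were read by their own markers. Calls in these and the following lists stand against 6.44% of all genes tested called lower and 6.25% called higher. Of 8 tested platelet and megakaryocyte genes, which bear on Pf4 and F13a1, 1 was lower (Treml1, 2.69-fold), and the summed level of the 10 listed was 15.9 to 18.4 CPM in frontal and 17.7 to 22.4 CPM in parietal-interparietal libraries. Ppbp, a platelet chemokine next to Pf4 in the genome, was at 1.01 and 2.64 against 2.62 and 1.70 CPM, and Gp1bb had 0 counts in frontal library 1. Of 4 tested lymphatic genes, which bear on Lyve1, 1 was called higher by edgeR (Reln, also a gene of cortical neurons) and 0 lower. Log2 fold changes were positive for 2 of them and negative for 2. Flt4 was the 1 gene on the lower side at an unadjusted p under 0.05, at 9.77 and 8.66 against 12.4 and 13.4 CPM (log2 fold change −0.49, edgeR adjusted p = 0.0677). Prox1 was at 14.2 and 15.2 against 11.3 and 13.2 CPM, and Ccl21a had at most 5 counts. Of 10 blood endothelial genes, which bear on Stab1, 1 was lower (Cdh5, 1.54-fold) and 1 higher (Cldn5), with sums of 487 to 531 against 583 to 595 CPM. The part of these cells in the member differences was not tested.

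Of 5 tested osteoclast genes 2 were lower, Ctsk, cathepsin K (1.34-fold), and Nfatc1, the factor of osteoclast differentiation that endothelium also uses (1.44-fold), while Dcstamp, needed for osteoclast fusion, had at most 2 counts and Ocstamp had 0 in 3 of 4 libraries. Acp5, the acid phosphatase of osteoclasts, lay on the other side at 5.08 and 3.92 against 2.46 and 2.80 CPM and was not called (log2 fold change 0.77, unadjusted p = 0.0207, edgeR adjusted p = 0.106). At an unadjusted p under 0.05 there were 2 lower and 1 higher, and no osteoclast gene was called without parietal-interparietal library 1, without library 2 or with that pair summed. Lymphocyte genes summed to at most 5.31 CPM in any library, with Cd3d and Ms4a1 at 0 counts in all 4, which allows a level of up to 0.123 CPM, that of 3 counts, in the shallowest library, or 0.246 CPM if each fragment gave 2 counts. None of the 4 tested lymphocyte genes was called by edgeR or DESeq2, and 1 had an unadjusted p under 0.05. Of 4 tested mast cell genes 1 was lower (Cpa3), and of 10 granulocyte genes 1 was lower (S100a9), while 6 of the 10 had positive log2 fold changes and the median was 0.33. Neither list had a call in those same 3 settings, nor did the platelet list, and no blood endothelial gene was called higher in them.

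Genes of other tissues were lower in the same libraries. Of 10 red cell genes 8 were lower, of 9 tested skeletal muscle genes 8 and of 9 meningeal genes 6, with 0 higher in each list by edgeR, by DESeq2 and at an unadjusted p under 0.05. Without parietal-interparietal library 1, without library 2 and with that pair summed, the lower genes numbered 4, 5 and 4 for red cells, 3, 4 and 4 for muscle and 4 each time for meninges. Of 8 midbrain and hindbrain genes 5 were lower. Relative to the frontal mean, the parietal-interparietal sum was 1.40 times for red cell, 1.43 times for muscle and 1.75 times for meningeal genes, against 1.23 times for the shared macrophage genes and 1.32 times for the border genes. Forebrain genes had a ratio of 0.497 and midbrain and hindbrain genes one of 2.03. In the frontal libraries the red cell sum was 9212 and 7013 CPM and the sum of all members 732 and 753 CPM. The part of tissue composition in the macrophage difference was not tested.

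**Figure D3:**
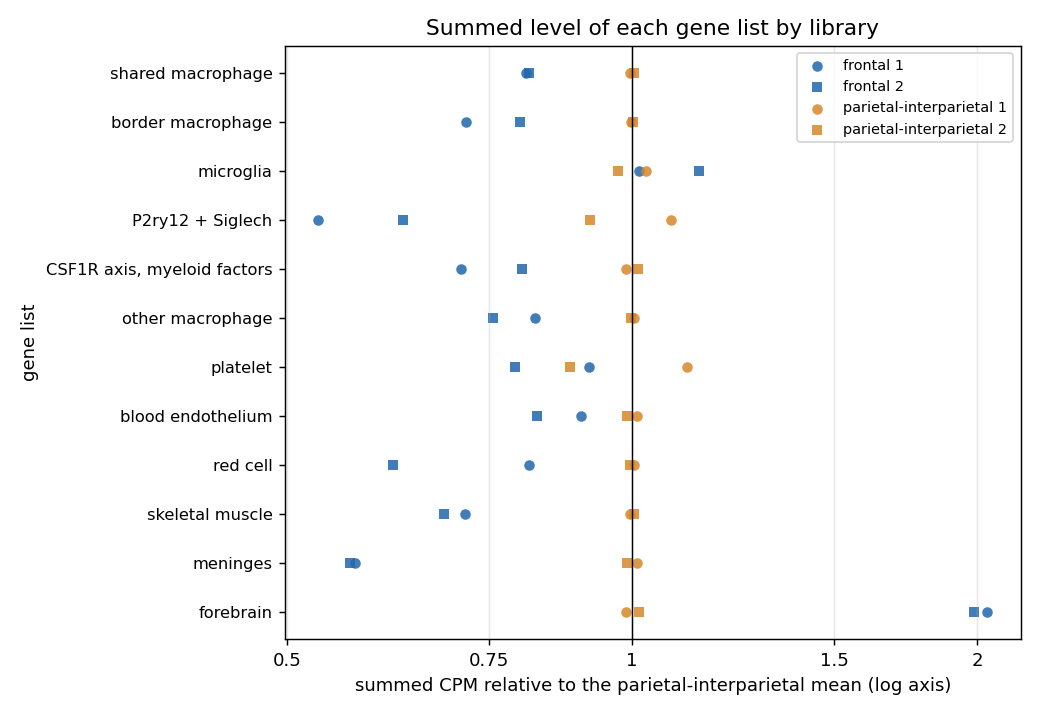
Summed CPM of each gene list in each library, divided by the mean of the parietal-interparietal libraries (log axis), with symbols as in the plot of member levels. Shared and border macrophage sums of both frontal libraries lie below 1, as do those of red cell, muscle and meningeal genes, the microglia sum with Tmem119 does not, and forebrain genes lie near 2.

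The 7 called members were followed with each library left out. Each kept a negative log2 fold change in all 4 such settings, and Stab1, Tyrobp, C1qc, Lyz2, F13a1 and Pf4 lost their call without parietal-interparietal library 1 and, with Laptm5, without library 2. Their values moved little there while the SE grew: without library 1 and without library 2 Stab1 was at −0.48 ± 0.17 and −0.48 ± 0.17, against −0.48 ± 0.09 with all libraries, and Pf4 at −0.51 ± 0.18 both times, against −0.51 ± 0.13. C1qc moved more, to −0.35 and −0.46 from −0.41. The values without frontal library 1 and without frontal library 2 were −0.31 and −0.62 for Lyz2 and −0.66 and −0.87 for Laptm5, and all 7 were called in both settings.

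**Figure D4:**
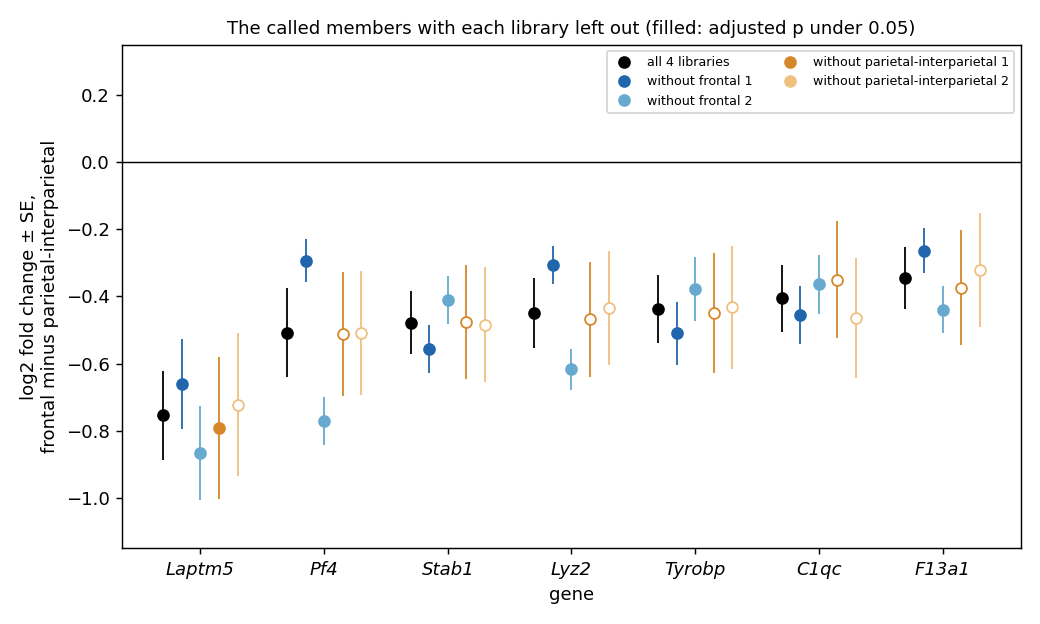
Log2 fold change ± SE of the 7 called members with all 4 libraries and with each library left out in turn, filled where the edgeR adjusted p was under 0.05. All points lie below 0, and of the points without a parietal-interparietal library only that of Laptm5 without library 1 is filled.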

How the data were processed

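The deposited table holds raw counts, whole numbers with no scaling. The submitters' processing notes name featureCounts 2.0.1, HISAT2 2.1.0 and Trim Galore 0.6.7, with the build GRCm38. The sources used here give no settings, strand or annotation release. Because low counts were mostly even, which both mates of a fragment being counted would give, halved counts were also tried. Symbols and positions came from GENCODE M21 (GRCm38), which matched 55227 IDs. No per-sample column was unmapped.

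The counts were tested as frontal minus parietal-interparietal in edgeR 4.0.16 (R 4.3.3): filterByExpr (minimum count 10), TMM, quasi-likelihood F test, two-sided, group as the only term, 2 residual degrees of freedom, Benjamini-Hochberg over 20947 genes. SE is the absolute log2 fold change over the root of F, and intervals use the moderated degrees of freedom. The procedure was tested on simulated data. DESeq2 1.42.0 and 10 other settings were alternatives. Figures used matplotlib 3.10.9.

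The members and lists were chosen with earlier results of these data known, so no p-value is adjusted over a list. All members are named, and of the 17 other lists up to 4 genes with the smallest p, with others named beside a member they bear on. Ocstamp, Dcstamp, Ppbp, Gp1bb, Ccl21a, Il34, Myb, Apoe and Runx2 lie outside that rule and were named after their values were seen. From the osteoblast list 1 gene is not reported here.

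Agreement within a group was read over genes above a minimum count in that group, 17574 for parietal-interparietal and 18371 for frontal. The median squared difference, scaled to the expected count, was 2.96 times sampling noise for the parietal-interparietal and 9.87 times for the frontal libraries. With counts halved, over fewer genes, it was 1.47 and 5.38 times. Each library was entered as 1 sample. These values do not show whether the libraries of a group are separate embryos, and the close parietal-interparietal pair may be technical replicates. The setting with that pair summed is reported for this reason. Intervals and floors cover counting error and the spread of these libraries only.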

Additional observations from a re-analysis of the deposited data

How the results depend on the processing

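Over all genes 2657 were called with 4 libraries, 791 with the parietal-interparietal pair summed, and between 865 and 7279 with a library left out. Members called lower were 7, against 1 with the pair summed and 0 to 12 with a library left out, and members called higher were 0, against 0 to 3 with a library left out; a group left with 1 library is assumed to vary like the other. The cause was not tested. RLE scaling, DESeq2, halved counts and no filter gave 7, 7, 7 and 8 members lower and 0 higher. Of all genes in those fits 6.56%, 3.67%, 7.87% and 5.34% were called lower. For DESeq2 and for no filter this is a share of all genes with a count. With no scaling beyond the total count 10 members were lower, where 7.67% of all genes were called lower. Of all calls there 38.0% were higher, against 49.3% with TMM. Same-numbered libraries shared no common deviation (r = 0.0179 across genes), so the numbers were not taken as a pairing. With the replicate number as a block 3306 genes were called, and 8.13% of all genes were called lower. There 8 members were lower, the 7 and Cx3cr1, and 0 higher. No called member changed sign. Of 383 values of members under alternatives 345 kept their side of the threshold, 19 lost a call and 19 gained one. Members under 2 CPM, such as Cd163, Itgam and Siglech, had few counts, and their intervals allow both a small and a several-fold difference. The reason for their low counts was not tested.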
